A study of Rattus norvegicus with 14 samples.

Results

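The liver makes cholesterol from acetyl-CoA through the mevalonate pathway, and the enzymes described here catalyse steps along that route. They were chosen by name: every probe set whose platform symbol was Hmgcs1, Idi1, Fdps, Fdft1, Sqle, Lss, Cyp51 or Dhcr7 was taken, which gave 20 of the 8740 probe sets and 7 of the 8 listed genes. Hmgcs1 and the LDL receptor were not analysed here. Of the 20 probe sets, 19 were bright enough to be tested, and the exception was the dimmer of the 2 Idi1 probe sets.

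Liver RNA came from male rats aged 74 days that had been fed for 53 days a diet sufficient in or deficient in vitamin A (retinol and its esters). Single-channel Affymetrix rat arrays were hybridised with targets made from about 10 µg or about 2 µg of total RNA, so the 14 arrays form 4 groups: 4 sufficient and 4 deficient arrays at 10 µg, numbered 1 to 4, and 3 of each diet at 2 µg, numbered 1, 2 and 4. The values of a number within a diet were averaged over its arrays, once the mean shift between the amounts had been taken out of every probe set. Each average is called an animal (n = 4 per diet), although the labels leave unsaid which arrays came from 1 liver. A p-value over these averages therefore measures their spread, which may be technical, and animal 3 of each diet rests on 1 array. The tests of RNA amount, and of its interaction with diet, took the 14 arrays as separate samples instead. Levels are log2 of the intensity, scaled to a trimmed mean of 500 on every array, plus 16, so an intensity of 0 lies at 4. Liver RNA comes from a mixture of cells, in which fewer cells of a type and less RNA per cell cannot be told apart.

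The pathway first builds isoprenoid units, then joins them into squalene, and then closes and trims the ring system to cholesterol. Its genes are known to be switched on together by the sterol regulatory element-binding proteins, membrane-bound factors that are released when sterols in the endoplasmic reticulum run low. Insulin and feeding also raise this pathway in rodent liver, and its activity follows a daily rhythm.

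Promoter sequences were found for 5 of the 7 measured genes in the RefSeq table of the GRCr8 build, and they are shown because the genes varied together between animals, as described next. Sqle and Fdft1 were not in that table. Each line holds the 150 bases before the annotated start, 5′ to 3′ on the gene's own strand, with capitals for matches to the motifs searched. The regions are chr17:66547525-66547674 on the minus strand for Idi1, chr2:176804817-176804966 on the minus strand for Fdps, chr20:12118231-12118380 on the minus strand for Lss, chr4:30991543-30991692 on the plus strand for Cyp51 and chr1:208444284-208444433 on the plus strand for Dhcr7.
Idi1: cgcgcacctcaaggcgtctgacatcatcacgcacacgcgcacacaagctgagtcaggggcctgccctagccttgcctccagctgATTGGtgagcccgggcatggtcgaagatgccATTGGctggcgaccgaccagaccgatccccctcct
Fdps: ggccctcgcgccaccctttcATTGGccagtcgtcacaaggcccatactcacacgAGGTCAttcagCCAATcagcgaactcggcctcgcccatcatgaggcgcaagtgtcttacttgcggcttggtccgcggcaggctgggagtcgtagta
Lss: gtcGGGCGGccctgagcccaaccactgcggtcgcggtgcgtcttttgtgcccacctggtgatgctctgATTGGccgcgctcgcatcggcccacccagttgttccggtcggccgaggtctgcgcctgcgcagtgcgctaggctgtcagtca
Cyp51: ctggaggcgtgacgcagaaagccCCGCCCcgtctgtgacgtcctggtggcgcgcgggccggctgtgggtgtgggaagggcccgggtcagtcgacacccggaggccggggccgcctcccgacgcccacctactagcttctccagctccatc
Dhcr7: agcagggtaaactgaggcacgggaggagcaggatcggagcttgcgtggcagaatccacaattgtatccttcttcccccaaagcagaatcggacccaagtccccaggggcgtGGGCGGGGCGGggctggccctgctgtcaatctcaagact
The motifs were searched on both strands over the 250 bases before the start, and 1 pair of GC boxes overlapped, in Dhcr7. The CCAAT box, CCAAT, stood in Idi1, Fdps and Lss, against 34.0% of all 33469 promoters in the table. In Fdps the CCAAT box began at bases -130 (minus strand) and -85 (plus strand), counting the base before the start as -1. In Idi1 it began at -66 and -35, and in Lss at -82. The GC box, GGGCGG, stood in Fdps, Lss, Cyp51 and Dhcr7, against 30.5% of all promoters. That of Fdps and 1 of those of Lss lay upstream of the bases printed. The nuclear receptor half-site AGGTCA stood in Fdps alone, at -96, against 14.1% of all promoters. The sterol element in the form TCACNCCAC stood in none of the 5 and in 0.974% of all promoters, which says only that these letters are not in this window. A match is a description of the sequence and not a site shown to be used.

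The question put to the diet groups was whether enzymes of cholesterol synthesis differed in livers fed without vitamin A. None of the 19 tested probe sets passed an adjusted p of 0.05 in limma, against 1.72% of all 5244 tested probe sets. Exactly 1 of the 19 had an unadjusted p under 0.05, a Dhcr7 probe set, as did 758 of the 5244, and 0 of the 20 had 4 deficient values clear of the 4 sufficient values, against 8.91% of all tested probe sets. The deficient mean was the lower one in 15 of the 19 probe sets and in 5 of the 7 genes, taking the brightest probe set of each. The median difference over the 7 genes, deficient minus sufficient, was -0.24 on the log2 scale, beside 0.04 over all tested probe sets. Their levels varied between animals of one diet, and this variation was shared among them.

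Idi1 makes the allylic isoprenoid unit from which longer chains are built. Its level in sufficient animals 1 to 4 was 9.85, 11.89, 10.05 and 10.87, and in deficient animals 1 to 4 it was 11.72, 10.04, 9.69 and 10.50. Sufficient animal 2 and deficient animal 1 were high and the other animals lower, and the diets overlapped. The means were 10.67 ± 0.93 (SD, n = 4) in sufficient and 10.49 ± 0.89 in deficient livers, a difference of -0.18 (SE 0.48, limma adjusted p = 0.923). Between its highest and lowest animal Idi1 differed 4.61-fold. The dimmer Idi1 probe set, whose level lay between 5.06 and 6.54, was not tested.

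Fdps joins isoprenoid units into farnesyl diphosphate, the last precursor that cholesterol shares with prenylated proteins. Its brightest probe set gave 12.81, 13.06, 12.94 and 13.29 in sufficient animals 1 to 4 and 13.57, 12.63, 11.79 and 12.92 in deficient animals 1 to 4. The sufficient animals lay close together, whereas deficient animal 1 lay above all of them and deficient animals 2 and 3 below all of them. The means were 13.02 ± 0.20 and 12.73 ± 0.74, a difference of -0.30 (SE 0.29, limma adjusted p = 0.730). The other Fdps probe sets differed by -0.24 and -0.24, and the 3 correlated at 0.91 to 0.96 across the 8 animals.

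Fdft1, the squalene synthase, commits farnesyl diphosphate to sterols. Its levels were 10.72, 10.83, 10.56 and 11.10 in sufficient animals 1 to 4 and 11.63, 10.51, 10.24 and 11.38 in deficient animals 1 to 4. Deficient animals 1 and 4 lay above every sufficient animal, and deficient animals 2 and 3 below every one. The difference was 0.14 (SE 0.28, limma adjusted p = 0.898), and the other 3 probe sets gave differences between -0.02 and 0.08. The means of the brightest probe set were 10.80 ± 0.22 in sufficient and 10.94 ± 0.67 in deficient livers.

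Sqle, the squalene epoxidase, adds the oxygen that the ring closure needs and is a rate-limiting step of the sterol branch. Its single probe set gave 10.06, 11.10, 9.48 and 10.46 in sufficient animals 1 to 4 and 11.28, 10.29, 9.76 and 10.63 in deficient animals 1 to 4. Deficient animal 1 and sufficient animal 2 were again the highest, and sufficient animal 3 was the lowest. The means were 10.28 ± 0.68 and 10.49 ± 0.64, a difference of 0.21 (SE 0.36, limma adjusted p = 0.872).

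Lss, the lanosterol synthase, folds squalene epoxide into the first sterol. Its levels were 9.47, 9.98, 9.36 and 9.82 in sufficient animals 1 to 4 and 9.94, 8.94, 8.78 and 9.51 in deficient animals 1 to 4. Deficient animals 2 and 3 lay under every sufficient animal, while deficient animal 1 came just below sufficient animal 2, the highest. The difference was -0.37 (SE 0.24, limma adjusted p = 0.569), and the other 2 Lss probe sets gave -0.33 and -0.24.

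Cyp51, the lanosterol demethylase, is the P450 of the pathway. Its brightest probe set gave 11.70, 12.34, 11.12 and 11.30 in sufficient animals 1 to 4 and 12.26, 10.87, 10.13 and 11.29 in deficient animals 1 to 4. Deficient animal 3 was the lowest by a margin, and the highest animal, sufficient 2, exceeded it 4.63-fold. The means were 11.61 ± 0.54 and 11.14 ± 0.89, a difference of -0.48 (SE 0.39, limma adjusted p = 0.662). All 5 Cyp51 probe sets had the lower mean in deficient livers, by 0.25 to 0.48 in size, and none passed.

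Dhcr7 reduces the last double bond and so stands at the branch between cholesterol and the precursor of vitamin D. Its brightest probe set gave 9.96, 9.98, 9.83 and 9.49 in sufficient animals 1 to 4 and 10.11, 9.17, 9.06 and 9.94 in deficient animals 1 to 4, a difference of -0.24 (SE 0.23, limma adjusted p = 0.719). The other Dhcr7 probe set gave 10.26, 10.03, 9.66 and 10.19 against 10.27, 9.13, 8.56 and 9.55. In that probe set 3 deficient animals lay below every sufficient animal and deficient animal 1 above every one. Its difference was the largest among the 19, -0.66 (SE 0.30, limma p = 0.0493, adjusted p = 0.342; exact two-sided permutation p = 0.171).

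**Figure D1:**
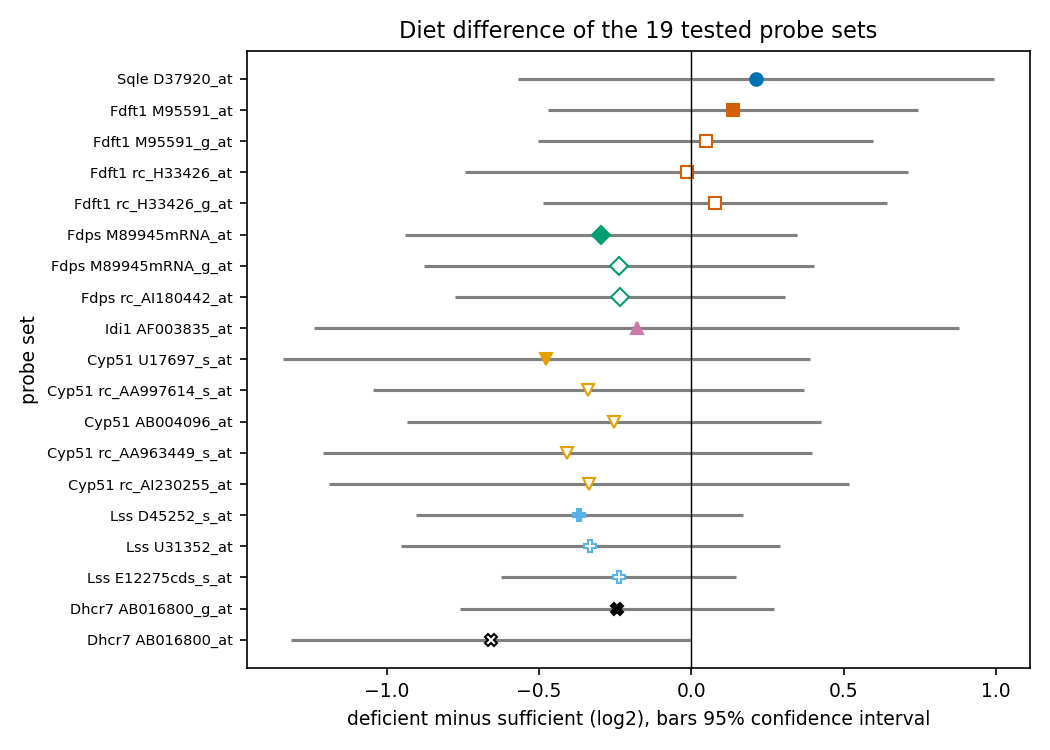
Difference between the diets, deficient minus sufficient on the log2 scale, for each of the 19 tested probe sets, with bars for the 95% confidence interval from limma; filled symbols mark the brightest probe set of a gene. The bars of 18 probe sets cross 0, and the bar of Dhcr7 AB016800_at ends just below 0 before adjustment over all probe sets.

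The intervals were wide. The 95% confidence interval of the difference ran from -0.57 to 0.99 for Sqle, from -0.94 to 0.35 for Fdps and from -1.34 to 0.39 for Cyp51, so changes of that size in either direction could not be told from 0 with 4 animals per diet. Without deficient animal 1 all 19 probe sets had the lower mean in deficient livers, by 0.049 to 0.96 in size, the median of the 7 genes was -0.58, and none passed (lowest limma adjusted p = 0.0825). Without deficient animal 3 that median was 0.015.

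The members ordered the animals in much the same way. Among the 4 deficient animals, animal 1 was the highest in 20 of the 20 probe sets and animal 3 the lowest in 17. Among the sufficient animals, animal 2 was the highest in 12 and animal 3 the lowest in 13. The matching shares over all probe sets are not given here. The 20 probe sets cover 7 genes, so these counts are not of separate observations. Deficient animal 1 exceeded deficient animal 3 by 4.38-fold in Cyp51, 4.09-fold in Idi1, 3.42-fold in Fdps, 2.87-fold in Sqle, 2.62-fold in Fdft1, 2.23-fold in Lss and 2.07-fold in Dhcr7. The mean level over the 7 genes was 10.65, 11.31, 10.48 and 10.90 in sufficient animals 1 to 4 and 11.50, 10.35, 9.92 and 10.88 in deficient animals 1 to 4.

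**Figure D2:**
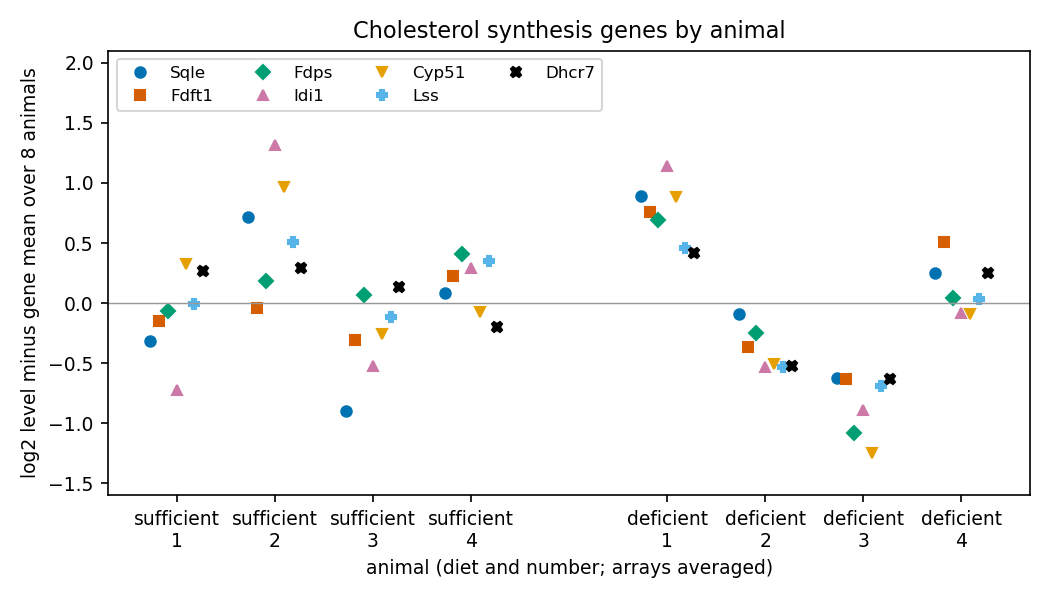
Level of each of the 7 genes in each animal, as the log2 level minus that gene's mean over the 8 animals; each symbol is 1 gene by its brightest probe set, averaged over the arrays of an animal. All 7 symbols are above 0 in deficient animal 1 and below 0 in deficient animals 2 and 3. In each sufficient animal and in deficient animal 4 they lie on both sides of 0.

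The SD between animals was larger in deficient than in sufficient livers in 17 of the 19 tested probe sets, against 48.3% of all tested probe sets. Its median over the members was 0.71 in deficient and 0.25 in sufficient livers, beside 0.22 and 0.22 over all tested probe sets. Idi1 and Sqle were the exceptions, with about equal spread in both diets (deficient over sufficient SD 0.96 and 0.94), and Fdps M89945mRNA_g_at had the largest ratio, 7.09. Leaving out any 1 animal, an alternative chosen after seeing the data, kept the count between 15 and 19, beside 40.8% to 55.7% of all tested probe sets. The 19 probe sets are repeats of 7 genes that varied together, so this count is not of separate observations. Pooled over the diets, the members' median SD was 0.54, and 7.17% of all tested probe sets varied that much or more.

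Members were then compared pair by pair over the 8 averaged values, with the brightest probe set for each gene. Pearson's r lay between 0.50 and 0.90 over the 21 pairs, with a median of 0.76, and Spearman's rho between 0.64 and 0.93, with a median of 0.81. Over all 4912545 pairs of the 3135 tested genes the median r was 0.02, and 2.06% of those pairs reached the members' median. By exact two-sided permutation of the pairings, adjusted over the 21 pairs by Benjamini-Hochberg, 14 pairs had p under 0.05 by r and 11 by rho.

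By r the closest pair was Lss with Cyp51, neighbours in the pathway (r = 0.90, rho = 0.93, exact permutation p = 0.0026 and 0.0022, adjusted 0.0197 and 0.0234). Sqle with Idi1 followed (r = 0.89, rho = 0.81, exact permutation p = 0.0034 and 0.0218, adjusted 0.0197 and 0.0416), and then Fdps with Lss (r = 0.88, rho = 0.86, exact permutation p = 0.00084 and 0.0107, adjusted 0.0177 and 0.0416). The loosest pair by r was Sqle with Dhcr7 (r = 0.50, rho = 0.67, exact permutation p = 0.208 and 0.0831, adjusted 0.208 and 0.0872). Dhcr7 with Idi1 was next (r = 0.57, rho = 0.67, exact permutation p = 0.129 and 0.0831, adjusted 0.136 and 0.0872). By rho the order was another: Idi1 with Lss (0.93) equalled Lss with Cyp51, Cyp51 with Dhcr7 (0.90) and Fdps with Idi1 (0.88) came next, and Sqle with Fdps (0.64) was the loosest. Set against the mean of the other 6 genes, Lss followed most closely (r = 0.93), then Cyp51 (0.91), Fdps (0.86), Idi1 (0.85), Fdft1 (0.81), Sqle (0.80) and Dhcr7 (0.76), given as a description over 8 animals.

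**Figure D3:**
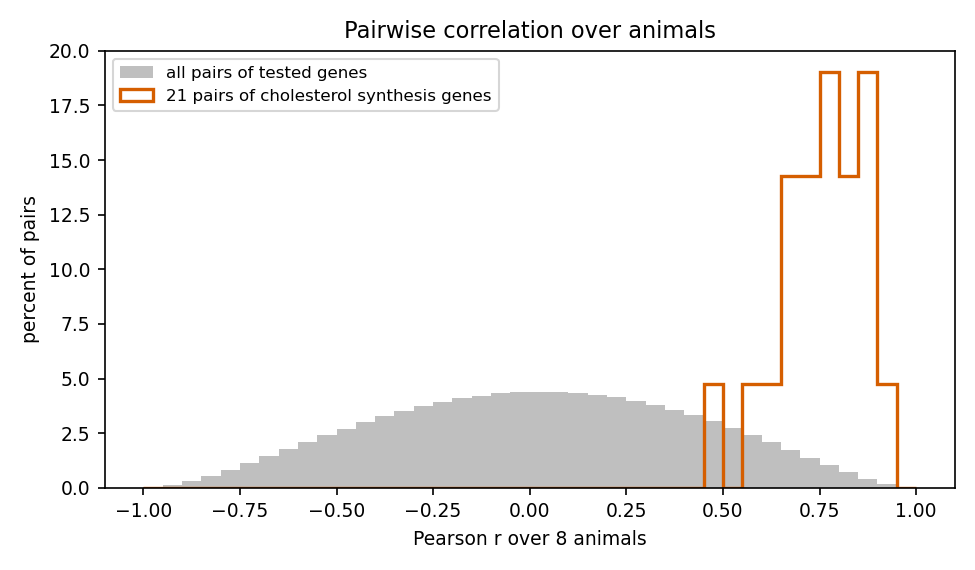
Distribution of Pearson's r over the 8 animals as a percent of pairs, for all pairs of the 3135 tested genes (grey) and for the 21 pairs among the 7 cholesterol synthesis genes (line). The grey pairs centre near 0.02, and the 21 pairs lie between 0.50 and 0.90.

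With the mean of each diet removed, the 21 values of r lay between 0.57 and 0.94 with a median of 0.80. The deficient animals weigh more in these values, as their spread was larger (median SD 0.71 against 0.25 in sufficient livers). Not every pair ran together within the sufficient diet. Among its animals, number 4 was the highest in Fdps (13.29) and the lowest in Dhcr7 (9.49). The relation within each diet alone was not tested. When the 2 animals farthest from the median of the first gene of a pair were left out, most often deficient animal 1 with another, the median r was 0.71 and all 21 stayed above 0. Of them, 16 stayed at 0.5 or more. The relation of Lss with Dhcr7 rested on the 2 animals left out, deficient animals 2 and 3, since r fell from 0.79 to 0.081 without them. Fdps with Dhcr7 (0.24), Idi1 with Dhcr7 (0.24), Fdps with Cyp51 (0.35) and Idi1 with Cyp51 (0.43) also weakened in this way.

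The arrays made from 2 µg gave a second reading for 6 animals, 3 of each diet. Idi1 at 10 µg read 10.02, 11.83 and 10.78 in sufficient animals 1, 2 and 4 and 11.73, 10.08 and 10.42 in deficient animals 1, 2 and 4. At 2 µg it read 9.74, 12.01 and 11.01, and 11.76, 10.05 and 10.63. The order of the 6 was the same at both amounts, as it was for Fdps and Cyp51.

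Across the 6 animals the readings at the 2 amounts correlated at 0.98 for Idi1 (rho = 1, exact permutation p = 0.0014 and 0.0028, adjusted over the 7 genes 0.0032 and 0.0065), 0.96 for Cyp51 and 0.93 for Fdps with the same p-values and rho, and 0.93 for Sqle (rho = 0.94). Lss (r = 0.88, rho = 0.71), Dhcr7 (r = 0.87, rho = 0.60) and Fdft1 (r = 0.83, rho = 0.94) followed. The adjusted exact permutation p of r was at most 0.0417 for the 7 genes, and that of rho was 0.159 for Lss and 0.242 for Dhcr7, beside 0.0233 for Sqle and Fdft1. Without the 2 animals farthest from the median, r was -0.53 for Dhcr7 over 4 animals, so that relation rested on those 2, and between 0.79 and 1.00 for the other genes. Over all tested genes the median r between the amounts was 0.41, and 17.6% reached the lowest value among the members.

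**Figure D4:**
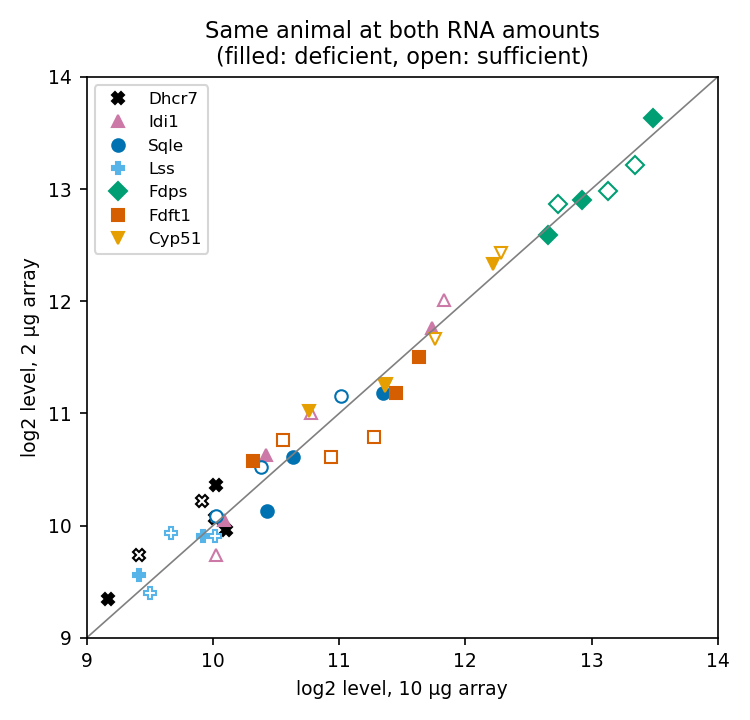
Log2 level on the 2 µg array against the 10 µg array for the 6 animals measured at both amounts, 1 symbol per gene and animal, filled for deficient and open for sufficient, with the line of equality. The symbols of each gene lie near the line; the correlation within a gene was 0.83 to 0.98.

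The RNA amount itself made no difference that passed the test. The members differed by -0.16 to 0.29 between 2 µg and 10 µg (limma adjusted p of at least 0.869), and none of the 5244 tested probe sets was called (0%; 347 had an unadjusted p under 0.05). With diet and number as a block, the members differed by -0.20 to 0.17, with Idi1 at 0.054 instead of 0.29. In that limma fit 2 of the 5244 were called (0.0381%) and no member was (lowest adjusted p = 0.432). The interaction of diet and amount called 0 probe sets as well (0%; 96 with an unadjusted p under 0.05), and the lowest unadjusted p among the members was 0.439.

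Other enzymes of the same route, from a list written with earlier results of these data known, had 7 tested genes of 16 listed. None of the 7 passed by diet in limma (the smallest adjusted p, 0.551, was that of Hsd17b7 at -0.58, SE 0.37), and their median difference was -0.07. Ebp was at -0.23 (adjusted p = 0.792) and Acat2 at -0.30 (adjusted p = 0.835). Their levels over the animals were set against the mean standardized profile of the 7 members, as 36 such correlations over all lists, adjusted together. Of these 7 genes, 6 had r of 0.5 or more, against 14.4% of the other tested genes, and 5 had an adjusted exact permutation p under 0.05.

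Acat2, the cytosolic thiolase that starts the pathway, came closest (r = 0.98, rho = 0.93, exact permutation p = 9.92e-05 and 0.0022, adjusted 0.0036 and 0.0268; r = 0.95 without the 2 farthest animals). For the list genes these are the 2 animals farthest from the median of the members' profile. Its levels were 9.83, 10.63, 9.36 and 9.89 in sufficient animals 1 to 4 and 10.93, 9.20, 8.63 and 9.75 in deficient animals 1 to 4. Msmo1, the methylsterol monooxygenase, read 12.09, 12.59, 11.74 and 12.50 against 13.04, 12.03, 11.54 and 12.34 (r = 0.95, rho = 0.95, adjusted exact permutation p = 0.0156 and 0.0268). In both genes deficient animal 1 was the highest and deficient animal 3 the lowest, as in most probe sets of the members (15 and 16 of 20).

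Nsdhl, a sterol dehydrogenase of the demethylation complex, had r = 0.93 (rho = 0.93, adjusted exact permutation p = 0.0181 and 0.0268). Hsd17b7, the ketosteroid reductase of that complex, had r = 0.89 (rho = 0.81, adjusted exact permutation p = 0.0181 and 0.157), and Mvd, the mevalonate diphosphate decarboxylase, r = 0.88 (rho = 0.83, adjusted exact permutation p = 0.0266 and 0.138; r = 0.60 without the 2 farthest animals). Ebp, the sterol isomerase, reached r = 0.75 (rho = 0.64, adjusted exact permutation p = 0.198 and 0.385), which fell to 0.29 without the 2 farthest animals. Mvk, the mevalonate kinase, had r = 0.45 (rho = 0.60, adjusted exact permutation p = 0.697 and 0.433).

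Of 9 tested genes of sterol regulation and uptake, none passed by diet (median difference -0.11), and none had an adjusted exact permutation p under 0.05 against the members' profile. Insig1, which holds the sterol-sensing complex in the endoplasmic reticulum and is itself a target of that system, read 10.58, 10.36, 10.64 and 11.30 against 11.35, 10.30, 9.99 and 10.81. It had r = 0.72 (rho = 0.71, exact permutation p = 0.0441 and 0.0576, adjusted 0.227 and 0.296), which fell to 0.23 without the 2 farthest animals. Srebf1, the gene of the isoforms that favour fatty acid synthesis, had r = -0.41 (rho = -0.50, adjusted exact permutation p = 0.758 and 0.599). The smallest p by diet belonged to Scarb1, the receptor for high-density lipoprotein, at 0.42 (SE 0.13, limma adjusted p = 0.167), which its other 2 probe sets gave as -0.08 and 0.16. Pgrmc1, a heme-binding partner of P450s, was at -0.19 (limma adjusted p = 0.476), and Mbtps2, the site-2 protease of the same system, at -0.36 (adjusted p = 0.578). Lipa, the lysosomal acid lipase, was at 0.16 (adjusted p = 0.676).

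Of 6 tested genes of cholesterol use and export, none passed (median difference 0.15). Lcat, which esterifies cholesterol on lipoproteins, had the smallest p, at 0.42 (SE 0.12, limma adjusted p = 0.140). Cyp7a1, the rate-limiting enzyme of bile acid synthesis, was at 0.17 (SE 0.36, adjusted p = 0.904), with r = 0.11 against the members' profile (rho = 0.29, adjusted exact permutation p = 0.955 and 0.805; r = 0.74 without the 2 farthest animals). Soat1, an esterifying enzyme, was at 0.22 (adjusted p = 0.757), and Cyp27a1, the sterol hydroxylase of bile acid synthesis, at 0.07 (adjusted p = 0.893).

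Fatty acid synthesis genes, targets of the same family of factors, gave another picture over these animals. Of 7 tested, 1 fell, against 0.992% of all tested probe sets called lower: Scd, the stearoyl-CoA desaturase, read 10.64, 11.12, 11.02 and 11.19 in sufficient and 8.71, 8.51, 7.87 and 7.16 in deficient animals (limma difference -2.93, SE 0.29, adjusted p = 0.00027). All 7 differences were negative, with a median of -0.55, and a dimmer probe set of Fasn, the fatty acid synthase, also fell (-0.99, adjusted p = 0.0412), which its brightest did not (-0.40, adjusted p = 0.366). Acacb, the other acetyl-CoA carboxylase of that list, was too dim to be tested and lay the other way, at 5.37 ± 0.71 in sufficient and 6.66 ± 0.06 in deficient livers, with no overlap. Acly, the ATP citrate lyase that supplies acetyl-CoA to both pathways, was at -0.73 (SE 0.19, limma adjusted p = 0.0857), Me1, the malic enzyme, at -0.84 (adjusted p = 0.146), and Elovl5, a fatty acid elongase, at -0.48 (adjusted p = 0.157). Against the members' profile r lay between -0.47 and 0.47 over the 7 genes, and none had an adjusted exact permutation p under 0.05. The difference between the lists was not tested.

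**Figure D5:**
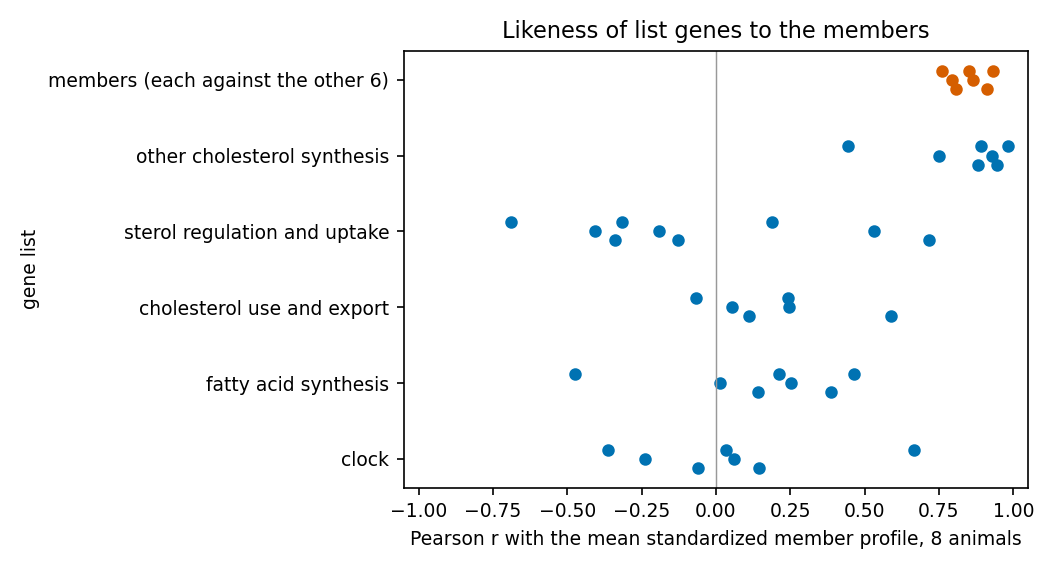
Pearson's r of each gene's level over the 8 animals with the mean standardized profile of the 7 members, by gene list; each member is set against the mean of the other 6. The other cholesterol synthesis genes lie between 0.45 and 0.98, and the fatty acid synthesis genes between -0.47 and 0.47.

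By likeness alone, over 3128 genes outside the members, the 10 nearest to the profile were Acat2 (r = 0.98), Cpt1b (0.95), Msmo1 (0.95), Aggf1 (0.94), Cftr (0.93), Nsdhl (0.93), Paxx (0.93), Dlgap5 (0.90), Clcn3 (0.90) and Slc26a2 (0.89). They were picked for these values, which are a description over 8 animals. Acat2, Msmo1 and Nsdhl were bright, with mean levels of 9.87 to 12.40, whereas the other 7 had mean levels of 6.47 to 8.45. None of the 10 passed by diet.

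Other measures were set beside the animal pattern. Among 7 tested clock genes none passed by diet. Dbp, an output gene of the clock, read 4.69, 9.37, 7.68 and 6.58 in sufficient and 9.43, 9.18, 9.42 and 9.72 in deficient animals. Its diet difference was 2.36 (SE 0.74, limma adjusted p = 0.157). Its r with the members' profile was 0.06 (rho = 0.33, adjusted exact permutation p = 0.956 and 0.805). Over the 7 clock genes r lay between -0.36 and 0.67, and none had an adjusted exact permutation p under 0.05. The highest r, that of Hlf, became -0.22 without the 2 farthest animals. Nr1d1, a clock repressor, was at 0.86 by diet (SE 0.27, limma adjusted p = 0.164), Nr1d2 at 0.75 (adjusted p = 0.245) and Tef at 0.24 (adjusted p = 0.483).

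The liver label was met by hepatocyte markers: 8 of 9 had a probe set, all 8 were tested, Alb had a mean level of 15.46, and their summed level lay between 17.44 and 17.91 in every animal. As counts of markers that passed by diet, beside 0.992% of all tested probe sets lower and 0.725% higher, 4 of 5 tested erythroid markers fell in deficient livers, from a summed level of 13.57 to 13.88 to one of 11.88 to 12.65. Of 4 tested macrophage markers Lgals3 rose (summed level 11.94 to 12.52 against 12.55 to 13.08), and 1 of 7 stellate and matrix markers rose (13.17 to 13.66 against 13.10 to 13.74). That one was Vim, at 0.80, while Col1a1 was at -0.85 and Dcn at -0.34, neither of which passed in limma (adjusted p = 0.121 and 0.591). Of 3 endothelial markers Lyve1 fell, at -1.04, while Pecam1 was at 0.22 and Kdr at -0.02, neither of which passed (adjusted p = 0.613 and 0.989). The endothelial sum was 9.16 to 9.47 against 8.82 to 9.11. The 3 cholangiocyte markers, none of which passed, summed to 8.08 to 8.27 against 8.52 to 8.87. Csf1r of the macrophage list, Des of the stellate list and Vwf of the endothelial list lay under the filter, at 5.21 to 5.88. Over the 8 animals the 6 summed levels had r between -0.35 (macrophage) and 0.46 (stellate and matrix) with the members' profile and rho between -0.19 and 0.52 (lowest adjusted exact permutation p = 0.589 and 0.977). Here the 2 animals farthest from the median of each sum were also left out, so the pair could differ between sums. Without them r was 0.82 for the hepatocyte, 0.73 for the erythroid, 0.66 for the endothelial and 0.16 for the stellate and matrix sum, -0.15 for the macrophage and -0.22 for the cholangiocyte sum.

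For GAPDH the signal at the 3′ end was set over that at the 5′ end, a measure of RNA integrity. On the log2 scale this ratio was 0.62, 0.94, 0.73 and 0.65 in sufficient animals 1 to 4. It was 0.58, 0.58, 1.12 and 0.89 in deficient animals 1 to 4. Over the 8 animals it had r = -0.35 with the members' profile (rho = -0.10, exact permutation p = 0.389 and 0.840, adjusted over 3 such relations 0.389 and 0.840; r = -0.02 without the 2 farthest animals). That for beta-actin had r = 0.42 (rho = 0.45, exact permutation p = 0.294 and 0.267, adjusted 0.389 and 0.401; r = 0.54 without them), and the median intensity of the arrays, which lay between 175.1 and 230.95, had r = 0.55 (rho = 0.62, exact permutation p = 0.149 and 0.115, adjusted 0.389 and 0.345; r = 0.75 without them). Their part in the members' pattern was not tested. With every array at a common median the members' median pairwise r was 0.72.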

How the data were processed

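Affymetrix rat arrays of liver RNA were read from 1 table of the series. The deposited values, for all 14 arrays, are intensity on a linear scale (1 per probe set); the authors' program is not given in the sources used here. The trimmed mean, with 2% taken off each end, lay between 1001.9 and 1002.1 on every array, so the deposited intensity had been scaled to one level. The number of arrays limits the precision. All 14 columns matched a label.

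Here the 59 control probe sets were left out, arrays were scaled to a trimmed mean of 500, a pseudocount of 16 was added, log2 was taken, and 5244 probe sets whose mean reached the 40th percentile (6.196) were kept. For dim probe sets this scale gives too small a difference. Of the 8740 probe sets 7006 had 1 symbol in the platform annotation, 308 several and 1426 none listed. Probe sets of a gene are given separately, and the brightest stands for it.

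The 8 averaged values entered limma 3.58.1 under R 4.3.3, by lmFit and then eBayes (trend on), two-sided, with Benjamini-Hochberg adjustment over all tested probe sets and a threshold of 0.05. Amount and interaction used the 14 arrays as separate samples. Arrays of 1 diet and number at both amounts deviated together (r of 0.20 to 0.35 in 6 pairs, -0.25 to 0.12 for other numbers), so the pairing comes from the data and the number. Correlations used exact permutation of pairings in Python 3.11.15. The fits were tested on simulated arrays: by diet, 73.1% of 67 probe sets given a log2 change of 1 were recovered, and 16.4% of 67 given 0.5, with 11 false among 137 calls over 5244.

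The members and lists were chosen with earlier results of these data known. The rule for named genes took every member, up to 4 genes of each list with the smallest p, by diet, the 10 genes nearest to the members' profile, and Dbp. The other list genes named, and the marker genes, were chosen for naming with values in view. Alternatives covered scaling, pseudocounts, filters, trend, weights, amounts alone, blocks, Dbp as a covariate, rank correlation and leaving out each animal.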

Additional observations from a re-analysis of the deposited data

Results flagged for a closer look

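None of the 20 probe sets of the members had an animal standing apart within its diet. Over 112 groups of 4 animals, members and list genes together, 4 had an animal whose gap to the nearest other, as a share of the group's range, passed Dixon's 95% critical value, where chance gives about 1 in 20. They were Scarb1 in sufficient livers (0.945 of the range, animal 3 low), Mbtps2 in sufficient livers (0.908, animal 3 high), Gpam, an acyltransferase of glycerolipid synthesis, in sufficient livers (0.888, animal 2 low), and Hlf, a clock output factor, in deficient livers (0.852, animal 3 low).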

How the results depend on the processing

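No member probe set passed by diet under any of 24 alternatives, where the lowest adjusted p was 0.0825 (without deficient animal 1), or by amount or interaction under any of 17 each. Among the 24, exact permutation with 4 values per diet could call no probe set. The members' median pairwise r was 0.70 to 0.81 under 12 alternatives and 0.67 to 0.82 leaving out each animal. Their median diet difference was -0.40 to -0.10 under 16 alternatives and -0.58 to 0.015 leaving out each animal. Of 455 repeated values of single member probe sets 25 changed sign, none of them called in either fit, and the cause was not tested. With arrays at a common median Fdft1 M95591_g_at was -0.020. In the 2 µg arrays alone, which lack animal 3 of each diet, the Fdps probe sets were 0.023, 0.078 and 0.0087, and Fdft1 rc_H33426_at was 0.28. That probe set was 0.079 with 14 separate arrays and 0.042 with a random block for diet and number. With Dbp as a covariate Sqle was -0.17, and Fdft1 M95591_g_at -0.093 and rc_H33426_g_at -0.017. Idi1 kept its sign but moved most under that covariate, from -0.18 to -1.06 (SE 0.58, limma adjusted p = 0.647). Leaving out each animal, Sqle ranged from -0.052 to 0.49, Idi1 from -0.59 to 0.23, Fdps M89945mRNA_at from -0.58 to 0.015 and M89945mRNA_g_at from -0.55 to 0.040. Likewise Fdft1 M95591_at ranged from -0.092 to 0.37, M95591_g_at from -0.21 to 0.22, rc_H33426_at from -0.36 to 0.27 and rc_H33426_g_at from -0.20 to 0.25. Over all probe sets, 90 were called by diet, 52 lower and 38 higher, and with a common median 58 lower and 17 higher. The count was 33 in the 2 µg arrays alone and 24 with Dbp as a covariate. It was 250 with the random block, 349 with 14 separate arrays, and 48 to 94 leaving out each animal (59 without sufficient animal 3, 48 without deficient animal 4). By exact permutation with adjustment it was 0. That 0 was fixed in advance, as the few arrangements of 4 against 4 values give no small enough p. The number across diets did not pair the animals (r of -0.08 to 0.07), and as a replicate block it gave 78 calls. The amount count, 0, was 2 with diet and number as a block and 0 to 2 leaving out each animal.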

Other observations

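Lipa and Gpam had negative correlations with the cholesterol synthesis enzymes over the animals, none of which passed among those tested, and they were chosen after their values were seen. The 3 tested probe sets of Lipa, which releases cholesterol from lipoproteins taken up into lysosomes, had r of -0.95, -0.69 and -0.43 with the members' profile over 8 animals, of which the second alone was tested. The brightest of them, S81497_i_at, had r = -0.69 (rho = -0.64, adjusted exact permutation p = 0.258 and 0.385), and -0.57 without the 2 farthest animals. The 5 tested probe sets of Gpam had r between -0.78 and -0.38. The brightest had r = -0.47 (rho = -0.55, adjusted exact permutation p = 0.684 and 0.513), and -0.80 without the 2 farthest animals.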
